A study of Homo sapiens with 20 samples.

Results

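The binding of SMC1A was mapped by ChIP-seq in M14 melanoma cells with and without STAG2 knockdown. The 4 SMC1A libraries, of 20 in the series and of 16 with a peak list, were chosen by their antibody and comprised 2 WT and 2 STAG2-KD libraries. They held 472393 of the 1599606 peaks that all lists placed on chromosomes 1 to 22 and X. M14 is an established human melanoma line. Per the labels of the libraries whose titles bear no number (set 1), the cells carried a doxycycline-inducible shRNA against STAG2 and were kept in puromycin, WT cells without doxycycline and STAG2-KD cells with it for 5 days. The labels of the libraries numbered 2 (set 2) name M14, the genotypes and the same antibody lot, but neither the shRNA nor a doxycycline time. WT in set 1 is thus the uninduced knockdown line, and the labels name no control hairpin. Nothing states that the sets came from separate cultures, so the spread between them may be technical.

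Cohesin is a ring-shaped complex that embraces DNA and extrudes chromatin loops. SMC1A is a core part of every such ring in somatic cells, whereas STAG1 and STAG2 are alternative subunits of which a ring holds either. Extrusion often halts at DNA bound by CTCF, so cohesin is commonly found at its sites, while further cohesin lies at promoters and enhancers without it. SMC1A therefore reads out cohesin of both kinds, and the comparison asks where cohesin as a whole was bound before and after STAG2 was depleted.

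The sites below carry the comparison. Some were taken from the SMC1A regions that were strongest among those lost in both sets or gained in both sets. Others came from the regions in all 4 lists whose rank was moved furthest in the same direction. Each sequence is 150 bases of the GRCh37 (hg19) plus strand around the summit, with a match to the 11-letter core of the CTCF motif in capitals. Such a core was found on either strand within 100 bp of 17.1% and 9.85% of the WT summits of set 1 and set 2 and in 0.721% and 0.729% of windows placed 5 kb away. Only the CRYGS window of the 7 shown holds it, 13 bases before the summit, and the lack of a match says only that these letters are not there. The windows were picked to show this motif or its absence. Their share with a match is therefore not a result.
MAN2A1 intron, lost in both sets, chr5:109179941-109180090: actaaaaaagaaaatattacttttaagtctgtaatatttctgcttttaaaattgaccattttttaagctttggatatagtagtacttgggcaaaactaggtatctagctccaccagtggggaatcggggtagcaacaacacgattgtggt
PROS1 intron, lost in both sets, chr3:93625159-93625308: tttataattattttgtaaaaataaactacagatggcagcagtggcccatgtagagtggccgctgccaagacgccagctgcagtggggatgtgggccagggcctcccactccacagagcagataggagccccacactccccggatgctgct
PITX1-AS1 intron, gained in both sets, chr5:134544577-134544726: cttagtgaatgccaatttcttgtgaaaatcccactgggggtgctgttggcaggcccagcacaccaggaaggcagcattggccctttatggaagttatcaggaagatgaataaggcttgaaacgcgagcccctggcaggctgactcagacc
SH3RF3 intron, gained in both sets, chr2:109877396-109877545: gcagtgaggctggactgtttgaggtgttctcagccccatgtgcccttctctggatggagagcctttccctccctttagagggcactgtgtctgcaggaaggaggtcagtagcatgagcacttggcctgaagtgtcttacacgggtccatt
SLC2A1-DT intron, gained in both sets, chr1:43432959-43433108: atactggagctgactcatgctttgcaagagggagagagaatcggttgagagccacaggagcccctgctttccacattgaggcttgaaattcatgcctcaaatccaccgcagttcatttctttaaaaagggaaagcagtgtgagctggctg
near CRYGS, ranked higher upon knockdown in both sets, chr3:186247232-186247381: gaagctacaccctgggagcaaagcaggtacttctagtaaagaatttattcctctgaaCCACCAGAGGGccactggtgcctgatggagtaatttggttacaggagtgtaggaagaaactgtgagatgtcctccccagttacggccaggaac
exon of an unnamed long non-coding RNA gene, ranked lower upon knockdown in both sets, chr2:106252841-106252990: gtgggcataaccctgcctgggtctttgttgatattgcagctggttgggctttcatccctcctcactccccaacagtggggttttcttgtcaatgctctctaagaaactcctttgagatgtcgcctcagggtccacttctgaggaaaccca

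In the 2 sets, SMC1A peaks numbered 82239 in WT and 91489 in STAG2-KD (set 1), and 148383 in WT and 150282 in STAG2-KD (set 2). Both sets had more peaks upon knockdown, by 0.15 and 0.018 on the log2 scale, with a mean of 0.086 ± 0.096 (SD, n = 2). An exact permutation test of these numbers, two-sided, gave p = 0.667, and 2 libraries against 2 cannot give a p below 0.333. The difference between the sets was larger than that between the conditions, and the sets were called at different thresholds. Depth recovered from the lists was 23.0 M reads in WT and 25.3 M in STAG2-KD in set 1, a ratio of 1.10, and 48.1 M and 47.4 M in set 2, a ratio of 0.987. STAG2 itself, whose depletion the labels state, had 79048 peaks in WT and 58418 in STAG2-KD in set 1, and 118984 and 106135 in set 2 with its own antibody.

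The SMC1A peaks of STAG2-KD cells covered more of the genome. They spanned 34.0 Mb in WT and 38.6 Mb in STAG2-KD in set 1, and 88.8 Mb and 95.5 Mb in set 2, which is 1.14 and 1.07 times as much. Median peak width was 327 bp and 335 bp in set 1, and 406 bp and 453 bp in set 2. Promoters, taken as 1 kb around an annotated transcript start, held 31.2% of WT and 30.0% of STAG2-KD peaks in set 1, and 22.7% and 22.1% in set 2.

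WT and STAG2-KD peaks were then matched within each set, a peak being shared when it overlapped a peak of the other condition by at least 1 bp. Of the WT peaks, 15675 (19.1%) in set 1 and 38335 (25.8%) in set 2 had no STAG2-KD peak and are called lost. Of the STAG2-KD peaks, 26100 (28.5%) and 44651 (29.7%) had no WT peak and are called gained. For each lost peak there were 1.67 gained peaks in set 1 and 1.16 in set 2. These calls rest on presence at the authors' thresholds and are not a test of differential binding.

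Lost and gained peaks were weak peaks of their lists. When WT peaks were divided into 5 quintiles by −log10 q-value, 50.5% of the weakest and 0% of the strongest quintile were lost in set 1, and 58.2% and 0% in set 2. In the middle quintile, 9.86% and 21.9% were lost. Of STAG2-KD peaks, 65.7% of the weakest and 0.00547% of the strongest quintile (1 of 18298 peaks) were gained in set 1, and 66.2% and 0% in set 2. The middle quintile of STAG2-KD peaks held 24.2% and 27.2% gained peaks, in both sets more than the share of lost peaks in the middle quintile of WT. Fold enrichment is the ratio of pileup to expected background at the summit, with 1 added to each. Its median was 4.45 at lost and 8.21 at retained WT peaks in set 1, and 2.87 and 4.57 in set 2.

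**Figure D1:**
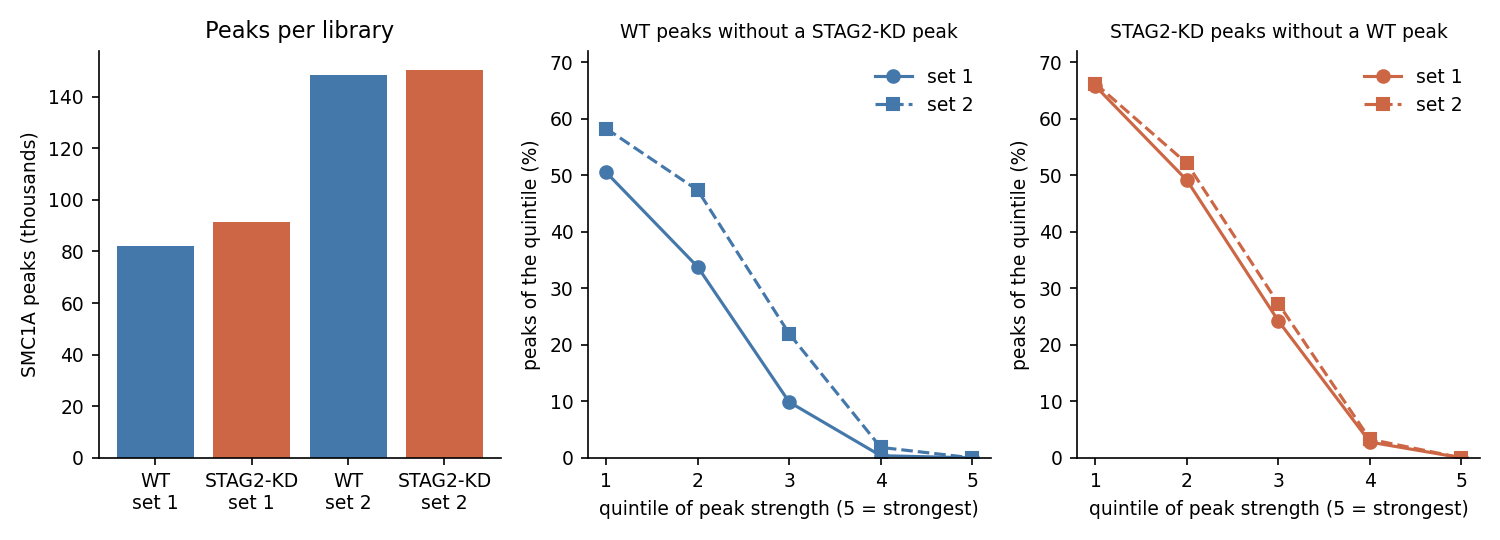
SMC1A peaks per library (left), and the percentage of WT peaks without a STAG2-KD peak (middle) and of STAG2-KD peaks without a WT peak (right) in each quintile of peak strength, by set. The share without a partner falls from 50.5% and 58.2% of the weakest WT quintile to 0% of the strongest, and from 65.7% and 66.2% to 0.00547% and 0% of the STAG2-KD quintiles.

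The lists of the sets were also matched, from the shorter lists of set 1 to the longer lists of set 2. Of the WT peaks of set 1, 2.59% had no WT peak in the longer list of set 2, and 6.06% had no STAG2-KD peak in it. Of the STAG2-KD peaks of set 1, 2.53% had no STAG2-KD peak and 8.89% no WT peak in set 2. Set 1 peaks were thus missing less often from the list of their own condition than from that of the other condition, a difference that was not tested. Since the set 2 lists are longer, these shares do not measure the error behind the lost and gained shares. In the other direction agreement was lower. Of 133982 merged regions (described next) with a WT peak in set 2, 63700 also had one in set 1. For STAG2-KD these were 72199 of 140243.

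Peaks of the 4 lists were merged to 181087 regions, of which 55715 (30.8%) held a peak in all 4 lists. Of the 63700 regions in both WT lists, 2053 (3.22%) were in neither STAG2-KD list and are called lost in both sets. Of the 72199 regions in both STAG2-KD lists, 4111 (5.69%) were in neither WT list and are called gained in both sets. Regions that were lost in set 1 and gained in set 2 numbered 104, and the reverse held for 112. Of the 7920 regions lost in set 1 that had a WT peak in set 2, 25.9% were also lost in set 2, against 0.117% of the 55780 regions kept in set 1. Of the 16351 regions gained in set 1 that had a STAG2-KD peak in set 2, 25.1% were also gained there, against 0.238% of 55848. Peak strength differs between these classes as given above, and its part in these shares was not tested.

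Of the 5 regions that ranked highest among those lost in both sets, 4 are described, which lay in introns of MAN2A1, a Golgi mannosidase gene, and PROS1, the gene of the anticoagulant protein S, between genes at 114603 bp from PIEZO2, a mechanosensitive channel gene, and in an exon of TACC1. The fold enrichment of the MAN2A1 region (chr5:109179744-109180187) was 9.01 and 6.25 in the WT lists of set 1 and set 2. CTCF, STAG1 and STAG2 each had a peak over this region in all 4 of their own lists, WT and STAG2-KD alike. The PROS1 region (chr3:93625035-93625445) had a WT fold enrichment of 7.53 and 5.50 and kept its STAG1 and STAG2 peaks in all 8 lists of these antibodies. The region near PIEZO2 (chr18:11264049-11264519) overlapped only the STAG2 peaks of both WT lists, with SMC1A fold enrichments of 6.40 and 5.92. Among these 4 regions the WT percentile ran from 45.6 to 60.9 in set 1 and from 69.9 to 73.7 in set 2, where 100 marks the strongest peak of a list.

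The 5 regions that ranked highest among those gained in both sets lay in introns of PITX1-AS1, SH3RF3 and SLC2A1-DT, between genes at 566380 bp from NR5A2, and in an exon of LEXM. The PITX1-AS1 region (chr5:134544087-134544975) had a STAG2-KD fold enrichment of 14.1 and 8.58, and the SH3RF3 region (chr2:109876820-109877899) one of 10.8 and 10.7. At both, the CTCF, STAG1 and STAG2 lists had a peak in both conditions and both sets, whereas neither SMC1A list of WT had one. At SLC2A1-DT (chr1:43432638-43433435), the divergent transcript of a glucose transporter gene, the SMC1A fold enrichment was 9.09 and 8.63 in STAG2-KD. There STAG1 had a peak in both STAG2-KD lists and in neither WT list, and no CTCF list had one. The LEXM region (chr1:55272604-55273715) likewise had CTCF peaks in both STAG2-KD lists and in neither WT list, with SMC1A fold enrichments of 9.67 and 8.59. Their STAG2-KD percentiles ran from 62.8 to 70.6 in set 1 and from 77.2 to 79.5 in set 2.

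Next, the change of rank was measured at shared peaks, as the percentile of the −log10 q-value within the STAG2-KD list minus that within the WT list. Over 66564 shared peaks in set 1 and 110048 in set 2, the median change was 2.53 and 1.11 points, with an SD across peaks of 18.1 and 21.3. In set 1, 15.3% were higher by 20 points or more and 5.59% were lower by as much, and in set 2, 17.4% and 7.43%. This excess of higher ranks lay among weak WT peaks, with a median change of 27.6 and 35.2 points in the weakest WT quintile and of 0.143 and −0.193 points in the strongest. A weak WT peak can hardly be ranked lower without leaving the list, so the change in the weak quintiles is partly set by the choice of shared peaks. When percentiles were taken among shared peaks only, the median change was −1.62 points as a mean of the sets, so the direction of the median depends on how the ranks are taken. The WT and STAG2-KD percentiles of shared peaks had a Pearson correlation of 0.761 in set 1 and 0.664 in set 2, as a description across peaks of the same libraries.

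**Figure D2:**
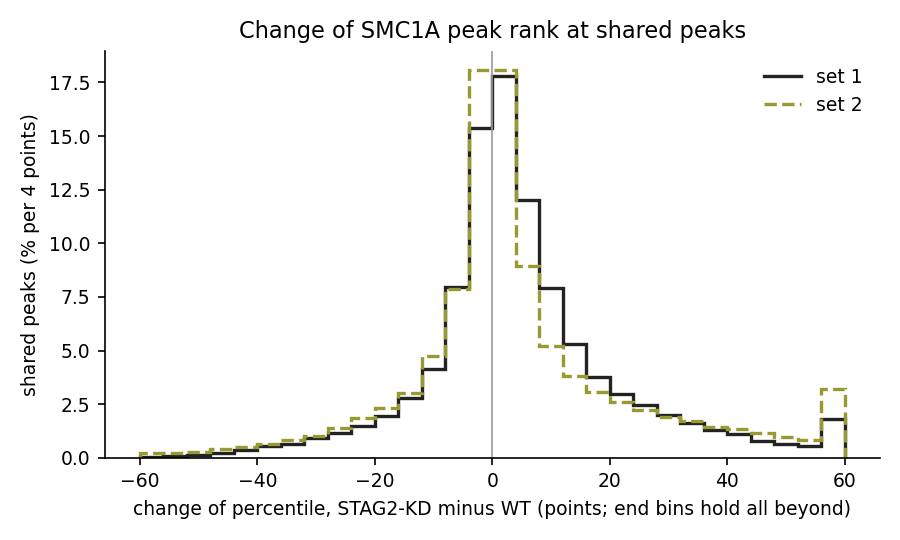
Distribution of the change of SMC1A percentile, STAG2-KD minus WT, at 66564 shared peaks of set 1 and 110048 of set 2, in bins of 4 points with the end bins holding all values beyond. Most peaks lie near 0, and the tail to higher ranks (15.3% and 17.4% by 20 points or more) is heavier than the tail to lower ranks (5.59% and 7.43%).

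SMC1A enrichment was higher in STAG2-KD at most sites that both conditions held, as measured by fold enrichment rather than rank. At the 55715 regions in all 4 lists, the median fold enrichment was 9.69 in WT and 11.6 in STAG2-KD in set 1, and 8.83 and 10.6 in set 2. The median log2 ratio of STAG2-KD to WT was 0.20 in set 1 and 0.22 in set 2. The fold enrichment was higher in STAG2-KD at 65.4% and 67.5% of the regions, at 52.0% in both sets, and lower in both sets at 19.1%. By quintiles of the mean percentile over the 4 lists, the median log2 ratio was 0.049 and 0.098 in the weakest quintile, 0.24 and 0.26 in the middle quintile, and 0.26 and 0.24 in the strongest. In that quintile the median fold enrichment was 31.2 in WT and 37.6 in STAG2-KD in set 1, and 21.4 and 25.3 in set 2. The same ratio was 0.048 and −0.038 for CTCF, 0.39 and 0.047 for STAG1, and −0.40 and −0.15 for STAG2 over the regions in all 4 lists of each. The differences between antibodies were not tested, and the libraries of a condition and set share their input. SMC1A depth in STAG2-KD was 1.10 and 0.987 times that in WT, and its part in the fold enrichment ratios was not tested. The labels name no spike-in, so a change of binding and a change of immunoprecipitation yield cannot be told apart.

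Shared peaks were also wider in STAG2-KD, and their summits lay closer together in set 1 than in set 2. The median width of a shared WT peak was 403 bp in set 1 and 594 bp in set 2. The widths of all STAG2-KD peaks overlapping it, added up, had a median of 498 bp and 773 bp. A wide STAG2-KD peak over several WT peaks counts with each of them, and counted once the shared STAG2-KD peaks had a median width of 455 bp and 668 bp. The added width exceeded that of the WT peak at 64.1% and 65.7% of shared WT peaks, shares that the adding and the repeated counting can both raise. Where a WT peak overlapped exactly 1 STAG2-KD peak, which may itself cover further WT peaks, the median distance between summits was 29 bp in set 1 and 77 bp in set 2. The summits lay within 50 bp of each other at 66.7% and 37.3% of these peaks.

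The changes in the sets were then set against each other. Over the 55715 regions in all 4 lists, the change of percentile in set 1 and in set 2 had a Pearson correlation of 0.440 and a Spearman correlation of 0.498, with the same sign at 69.2% of regions. This is a description across regions whose libraries are shared, and WT and STAG2-KD libraries of a set share their processing. Within bands of equal width in the mean WT percentile, the Pearson correlation was 0.228, 0.150, 0.402, 0.613 and 0.621 from weakest to strongest. The weakest band held 325 regions and the strongest 20642. Regions higher by 10 points or more in both sets numbered 2559 (4.59%), and those lower by as much in both sets 1990 (3.57%). At 871 regions the sets differed by 10 points or more in opposite directions. The spread between replicates of a condition can be set beside this: percentiles of these regions correlated at 0.862 between the WT lists and at 0.890 between the STAG2-KD lists of the 2 sets, and at 0.832 and 0.831 between WT and STAG2-KD within set 1 and set 2. The SD of the difference was 15.0 points between the WT lists and 13.2 points between the STAG2-KD lists of the sets. Between the conditions it was 14.6 points in set 1, inside that range, and 8.53 points in set 2, below it. The correlations were lower between the conditions than between the sets, so the measures do not give the same order.

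**Figure D3:**
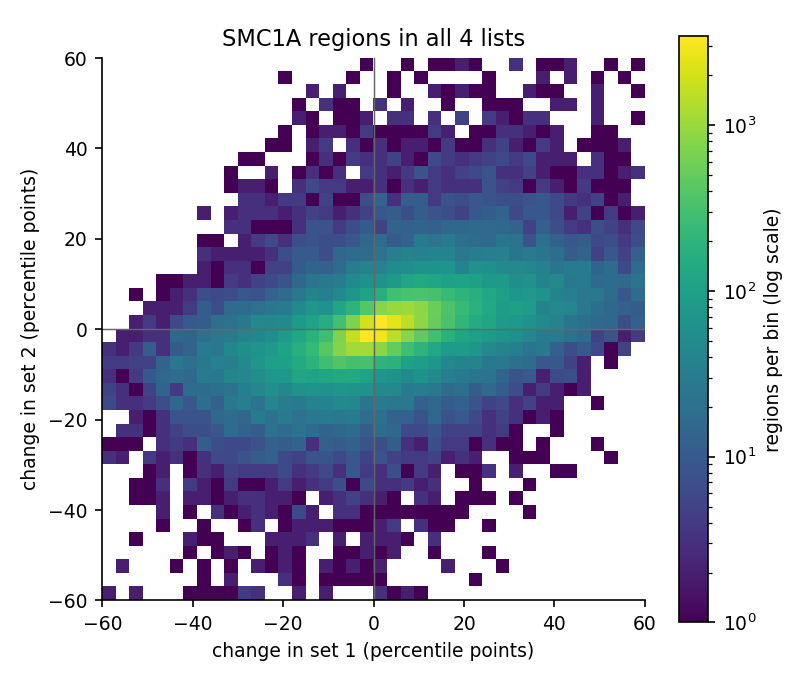
Change of SMC1A percentile in set 1 (horizontal) and in set 2 (vertical), both in points of STAG2-KD minus WT, at the 55715 regions in all 4 lists, with the colour giving the number of regions per bin on a log scale. The cloud runs from the lower left to the upper right with a Pearson correlation of 0.440, and its end bins hold all values beyond.

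Among the regions in all 4 lists, those whose rank differed most between WT and STAG2-KD in both sets are given next. Near CRYGS (chr3:186247054-186247489), the percentile was 1.48 in WT and 57.5 in STAG2-KD in set 1, and 13.5 and 69.2 in set 2. This site, whose core CTCF motif is printed above, had a CTCF peak in all 4 CTCF lists and no STAG2 peak in any. Its SMC1A fold enrichment went from 3.62 to 8.33 in set 1 and from 2.51 to 5.98 in set 2. A region between genes at 151198 bp from KLF5, a transcription factor gene (chr13:73802578-73803137), had percentiles of 7.64 and 67.8 in set 1, and of 14 and 73.7 in set 2. At the promoter of TMA16 (chr4:164415453-164416345) they were 1.74 and 53.6, and 4.57 and 64.3. The opposite held at an exon of a long non-coding RNA gene (chr2:106252493-106253475), with 66.2 in WT and 0.375 in STAG2-KD in set 1, and 77.0 and 12.5 in set 2. In an intron of NEK7, a mitotic kinase gene (chr1:198244541-198245345), the percentiles were 57.2 and 0.158 in set 1, and 76.2 and 7.85 in set 2, although CTCF, STAG1 and STAG2 had a peak there in every list. At SERPING1, the C1 inhibitor gene (chr11:57386697-57387240), they were 58.5 and 6.79, and 70.2 and 9.51.

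The SMC1A sites were then set beside the peaks of the other antibodies in the same set. CTCF had a WT peak at 74.8% of retained and 25.9% of lost WT peaks in set 1, and at 66.6% and 19.9% in set 2. The core CTCF motif was present at 20.2% of retained, 3.81% of lost and 5.25% of gained peaks in set 1, and at 12.6%, 1.93% and 2.36% in set 2. Since lost peaks were weak, the comparison was also made within strength. In the weakest WT quintile, 35.2% of peaks with a CTCF peak and 56.4% of those without were lost in set 1, and 40.0% and 63.7% in set 2. In the middle quintile these shares were 7.04% and 14.9% in set 1, and 13.1% and 28.9% in set 2. The share was thus higher without CTCF in these quintiles of both sets, a difference that was not tested, while in the strongest quintile it was 0% with and without CTCF.

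STAG2 occupancy separated the WT peaks further. SMC1A peaks at which STAG2 had a peak in WT only were lost at 29.5% of 13457 in set 1 and at 44.8% of 14605 in set 2. Where STAG2 had a peak in both conditions, 3.23% of 48206 and 5.07% of 84867 were lost. Those with STAG2 in WT only were weaker, with a median percentile of 32.9 against 70.4 in set 1 and 35.3 against 71.1 in set 2. Peaks without STAG2 in either condition were lost most often, at 52.1% and 61.1%, and they had the lowest median percentile, 19.7 and 23.0. STAG2 had a WT peak at 35.3% of lost peaks and a STAG2-KD peak at 11.7% of them in set 1, and at 28.3% and 13.7% in set 2.

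Gained peaks were also divided by STAG1 occupancy. Of STAG2-KD SMC1A peaks with STAG1 in STAG2-KD only, 42.4% of 13807 in set 1 and 32.8% of 10234 in set 2 were gained, against 8.04% of 51052 and 6.05% of 75798 with STAG1 in both conditions. The former had a median percentile of 36.9 and 42.1, the latter of 71.9 and 74.7. Peaks without STAG1 in either condition were gained most often, at 63.1% of 25064 and 61.5% of 56509, and had the lowest median percentile, 21.0 and 24.5. With STAG1 in WT only, 21.0% and 25.4% were gained. STAG1 had a peak at 17.0% of gained peaks in WT and at 38.1% in STAG2-KD in set 1, and at 14.7% and 17.8% in set 2. At shared peaks with STAG1 in STAG2-KD only, the median log2 ratio of SMC1A fold enrichment was 0.27 and 0.30, beside 0.22 and 0.24 over all shared peaks. With STAG1 in both conditions this ratio was 0.25 and 0.25, and without STAG1 in either it was 0.082 and 0.18. Where STAG1 had a peak in WT only, it was −0.077 and 0.11, so the sets differ in direction there. Many changed sites had none of the other proteins: 52.7% of lost and 49.0% of gained peaks in set 1 and 61.2% and 61.6% in set 2 had no CTCF, STAG1 or STAG2 peak in their own condition, against 8.93% and 11.6% of retained WT peaks.

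**Figure D4:**
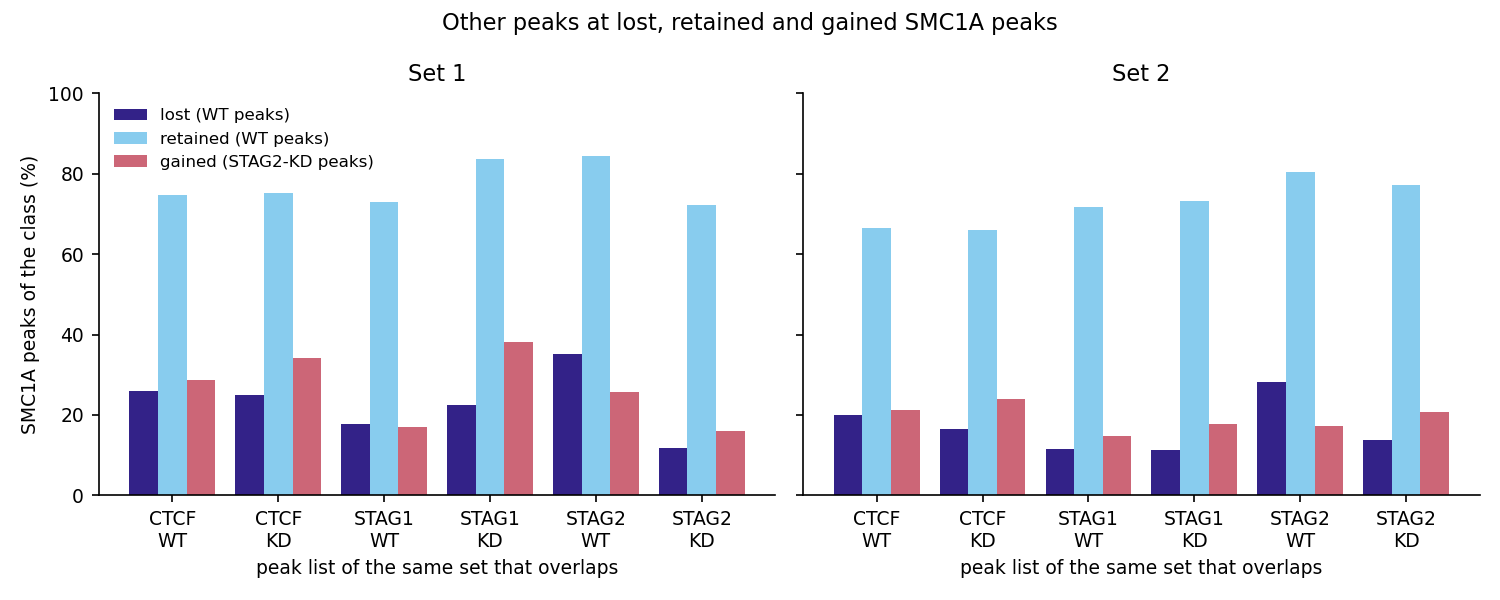
Percentage of lost and retained WT SMC1A peaks and of gained STAG2-KD SMC1A peaks that overlap a peak of CTCF, STAG1 or STAG2 in the WT or STAG2-KD list of the same set. Retained peaks stand highest throughout, lost peaks overlap STAG2 of WT (35.3% and 28.3%) more than STAG2 of STAG2-KD (11.7% and 13.7%), and gained peaks overlap STAG1 of STAG2-KD (38.1% and 17.8%) more than STAG1 of WT (17.0% and 14.7%).

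Regions changed in both sets showed the same order. At regions lost in both sets, STAG2 had peaks in both WT lists at 29.2% and in both STAG2-KD lists at 4.53%. At regions gained in both sets, STAG1 had peaks in both WT lists at 7.13% and in both STAG2-KD lists at 23.0%. Of the regions in all 4 lists that ranked higher by 10 points or more in both sets, STAG1 was at 50.8% in WT and 77.8% in STAG2-KD. Of those that ranked lower, STAG2 was at 80.9% in WT and 46.1% in STAG2-KD, and STAG1 at 53.6% and 61.7%. Over all 55715 regions in all 4 lists, STAG2 was at 89.8% and 78.8%, and STAG1 at 79.8% and 88.6%. By chromosome, the share of WT regions lost in both sets was lowest on chromosome X, at 17 of 1792 (0.949%), and highest on chromosome 20, at 4.12%, while the share gained ran from 4.66% on chromosome X to 7.32% on chromosome 20.

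The regions near 5 lists of genes (within 10 kb of the gene) were then described, beginning with the melanocyte lineage genes, which encode the pigment cell transcription factors, pigment enzymes and receptors. Near these 20 genes, SMC1A had 113 regions in WT and 98 in STAG2-KD in set 1, and 277 and 194 in set 2. The ratios of 0.867 and 0.700 stand beside 1.13 and 1.05 for all regions. Fewer regions in both sets were found at 6 of the 20 genes, where 7.01% of 18678 protein-coding genes had fewer, and more at 2, where 19.5% of genes had more. Of 111 regions in both WT lists 9 were lost in both sets (8.11%, against 3.22% of all), and of 96 in both STAG2-KD lists 3 were gained (3.13%, against 5.69%). STAG2 peaks near these genes numbered 137 and 80 in set 1, and 209 and 179 in set 2, whereas CTCF peaks numbered 88 and 98, and 132 and 122, and STAG1 peaks 84 and 104, and 140 and 146. The list was drawn up with results of these data known and was not tested.

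Among the melanocyte genes, MITF, the master regulator of the lineage, had 25 SMC1A regions in WT and 20 in STAG2-KD in set 1, and 77 and 43 in set 2. Its strongest promoter region had percentiles of 59.6 in WT and 46.6 in STAG2-KD in set 1, and 81.6 and 73.9 in set 2. At PAX3, a transcription factor gene upstream of MITF, regions numbered 9 and 2 in set 1, and 24 and 11 in set 2. At PAX3, 3 regions were lost in both sets, among them an intronic region (chr2:223112875-223114024) with a WT fold enrichment of 3.59 and 4.50 at which all 4 STAG2 lists had a peak. EDNRB, the endothelin receptor gene of melanocyte precursors, had 7 and 3 regions in set 1 and 18 and 5 in set 2. All 3 of its regions lost in both sets lacked CTCF, and the one outside the gene (chr13:78465507-78466343) had a WT fold enrichment of 5.25 and 5.09. DCT, which encodes a melanin synthesis enzyme, had a promoter region (chr13:95130032-95132680) with percentiles of 61.1 and 17.6 in set 1, and of 74.9 and 64.3 in set 2. At the promoter of KIT, the stem cell factor receptor (chr4:55524613-55525329), they were 49.6 and 32.5, and 72.4 and 46.9. Single regions were lost in both sets at DCT, ERBB3 and TRPM1.

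Higher ranks and gained regions were also found near melanocyte genes. The promoter region of BCL2A1, an antiapoptotic target of MITF (chr15:80263185-80263893), had percentiles of 21.1 in WT and 54.3 in STAG2-KD in set 1, and of 45.0 and 72.6 in set 2. That of OCA2, a melanosomal transporter gene (chr15:28343836-28344294), had 3.30 and 45.4, and 26.1 and 46.9. SOX10, the neural crest transcription factor gene, had 88.4 and 87.7 at its promoter in set 1 and 91.8 and 93.8 in set 2. A region over a SOX10 exon (chr22:38366283-38370484) had 44 and 12.8, and 74.1 and 63.0. A region gained in both sets within 10 kb of SOX10, in an intron of POLR2F (chr22:38391082-38391293), had a STAG2-KD fold enrichment of 4.46 and 4.37. RAB27A, a melanosome transport gene, and OCA2 also gained a region in both sets. Of 86 regions of the list in all 4 lists, 4 were higher (4.65%, against 4.59%) and 8 lower (9.30%, against 3.57%) by 10 points or more in both sets.

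Near the 30 interferon pathway genes, the receptors, kinases, transcription factors and induced genes of the type I response, SMC1A had 92 regions in WT and 109 in STAG2-KD in set 1, and 165 and 198 in set 2. The ratios were 1.18 and 1.2, beside 1.13 and 1.05 for all regions. More regions in both sets were found at 10 of the 30 genes, beside 19.5% of all genes, and fewer at 1. Of 105 regions in both STAG2-KD lists 11 were gained in both sets (10.5%, against 5.69%), and of 89 in both WT lists 1 was lost (1.12%, against 3.22%). Of 83 regions in all 4 lists, 5 were higher (6.02%, against 4.59%) and 9 lower (10.8%, against 3.57%) by 10 points or more in both sets. CTCF peaks near these genes numbered 121 in WT and 110 in STAG2-KD in set 1, and 146 and 140 in set 2.

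At the induced genes of the pathway, IFIT3 had 3 regions in WT and 6 in STAG2-KD in set 1, and 7 and 15 in set 2. Its promoter region (chr10:91087301-91088437) had percentiles of 34.9 and 57.7 in set 1, and of 45.0 and 73.0 in set 2, with fold enrichments of 5.02 and 8.48, and of 2.92 and 7.70. Beyond its gained sites, ISG15, an antiviral ubiquitin-like protein gene, had a region over the start of its main transcript (chr1:948311-949228) with percentiles of 4.22 and 39.9 in set 1, and of 56.9 and 71.9 in set 2. Beyond the gene, a region bound by CTCF, STAG1 and STAG2 in every list (chr1:950385-951230) had 69.9 and 54.1, and 84.5 and 73.0. RSAD2, an antiviral enzyme gene, gained a weak region at a transcript start inside the gene (chr2:7017939-7018384), at which CTCF had a peak in all 4 lists. Its STAG2-KD percentiles were 0.811 and 22.2, with fold enrichments of 3.16 and 2.53. A region in an intron of OAS3, which with the neighbouring OAS1 encodes sensors of double-stranded RNA (chr12:113377743-113378338), was gained with a STAG2-KD fold enrichment of 5.16 and 4.88. IRF1, an interferon-regulated transcription factor gene, had the region that was lost (chr5:131815726-131816118).

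At the signalling genes, the promoter region of the kinase gene TYK2 (chr19:10490519-10491901) had percentiles of 39.6 and 49.8 in set 1, and of 43.8 and 65.8 in set 2. JAK1, its partner kinase, gained a weak region at a transcript start inside the gene (chr1:65312259-65312552). The STAG2-KD percentiles of that region were 9.37 and 23.2, with fold enrichments of 4.19 and 2.81. IRF9, the DNA-binding part of the interferon-activated complex, had 1 SMC1A region in all 4 lists, at its promoter (chr14:24629824-24630890), with percentiles of 74.4 and 66.9 in set 1, and of 83.5 and 81.9 in set 2. Its fold enrichment was 15.3 in WT and 10.5 in STAG2-KD in set 1, and 9.50 and 11.9 in set 2, so the sets differ in direction on that scale. The promoter of CD274, which encodes PD-L1, had percentiles of 74.4 and 77.2, and of 90.2 and 87.5. These percentiles moved in opposite directions in the sets, whereas the fold enrichment was lower in STAG2-KD in both. That fold enrichment was 15.3 in WT and 14.9 in STAG2-KD in set 1, and 17.9 and 16.7 in set 2. The promoter percentiles of IRF7 were 43.8 and 30.9, and 71.0 and 72.5. IRF7 gained a further region at a promoter in both sets, with STAG2-KD percentiles of 15.3 and 37.1. USP18, a brake on interferon signalling, had no promoter region in all 4 lists, and its intronic region (chr22:18639729-18640539) had 76.2 and 57.1, and 87.4 and 75.5.

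**Figure D5:**
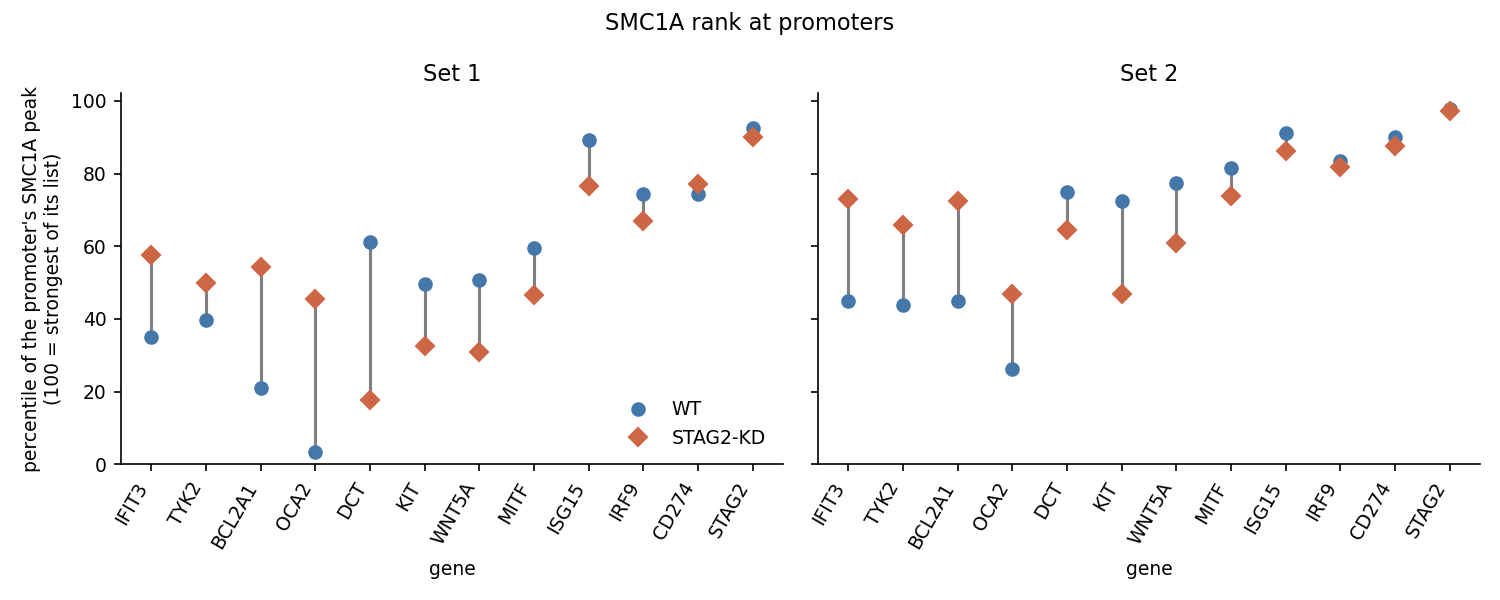
Percentile of the strongest SMC1A promoter region in WT (circles) and STAG2-KD (diamonds) for 12 genes, by set, where 100 is the strongest peak of a list. IFIT3, TYK2, BCL2A1 and OCA2 are higher and DCT, KIT, WNT5A, MITF, ISG15, IRF9 and STAG2 lower in STAG2-KD in both sets, and CD274 goes opposite ways. The ISG15 region shown (chr1:936643-937868) lies at an upstream start, whereas the region over its main start was higher (4.22 and 39.9, and 56.9 and 71.9).

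The 23 genes of MAPK feedback and ERK targets, which report on the pathway driven by mutant BRAF in many melanomas, had 83 SMC1A regions in WT and 105 in STAG2-KD in set 1, and 181 and 193 in set 2. The ratios were 1.27 and 1.07, beside 1.13 and 1.05 for all regions. Of 100 regions in both STAG2-KD lists 10 were gained in both sets (10.0%, against 5.69%), and of 79 in both WT lists 2 were lost (2.53%, against 3.22%). No gene had fewer regions in both sets and 5 of 23 had more, where 7.01% and 19.5% of all genes did: DUSP4, DUSP5, ETV4, EGR1 and CCND1. EGR1, an immediate early transcription factor gene, gained the strongest of these regions (chr5:137793492-137794078), with a STAG2-KD fold enrichment of 6.25 and 7.96 and CTCF peaks in all 4 lists. CCND1, the cyclin D1 gene, had 3 and 6 regions in set 1, and 8 and 14 in set 2. DUSP6, an ERK phosphatase gene, had 1 region in all 4 lists, none of its regions was lost or gained in both sets, and none moved by 10 points in both. SPRY4, a feedback inhibitor gene, had 1 region lost and 1 gained.

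Near the 16 genes of the dedifferentiated melanoma state, 63 regions in WT and 75 in STAG2-KD were counted in set 1, and 131 and 144 in set 2. Of 75 regions in both STAG2-KD lists 3 were gained (4.00%, against 5.69%), 2 of them in an intron of EGFR, and none of 63 was lost (against 3.22%), which is near the shares over all regions. Another intronic EGFR region (chr7:55211878-55212750) had percentiles of 58.0 and 25.7, and of 79.2 and 67.8. The promoter region of WNT5A (chr3:55519959-55522970) had percentiles of 50.6 and 30.9 in set 1, and of 77.4 and 60.9 in set 2. The 15 genes of cohesin and its regulators had 39 and 46 regions, and 110 and 97. Only STAG2 itself, in an intron, gained a region among them (1 of 45, 2.22%, against 5.69%), and none of 39 was lost (against 3.22%). The promoter regions of STAG1, with a fold enrichment of 63.3 in WT and 72.6 in STAG2-KD in set 1, and 36.9 and 39.7 in set 2, and of STAG2, with 34.1 and 30.4, and 30.0 and 33.6, had percentiles above 90 in every list. The CTCF promoter had percentiles of 79.9 and 79.5, and of 92.1 and 90.6. SMC1A had no region in all 4 lists near its own gene.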

How the data were processed

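ChIP-seq with an antibody against SMC1A was analysed in 2 WT and 2 STAG2-KD libraries of M14 cells. The authors aligned reads to hg19 and called the peaks of each library by itself with MACS2, using input as the control. The submitters' processing notes name Bowtie2 for set 1 and BWA, SAMtools, Picard, deepTools and CASAVA 1.4 for set 2. Which step each tool served is not given there, and the study's methods describe bowtie2 for alignment. The deposited lists give for each peak the fold enrichment at the summit and its −log10 p-value and −log10 q-value. Fold enrichment is a ratio of pileup to background, with 1 added to each. The lists of set 1 were limited to −log10 q-values of at least 2 and those of set 2 to −log10 p-values of at least 2, with 15.8% and 13.9% of set 2 peaks at a −log10 q-value under 2. Per the labels, chromatin was extracted in different ways in the sets, and libraries were sized on beads in 1 set and on a gel in the other. The set is therefore a batch, and conditions were compared inside a set.

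Peaks on chromosomes 1 to 22 and X were kept (Python 3.11.15, numpy 2.4.6, pandas 2.3.3, scipy 1.17.1, pysam 0.24.0). Where several peaks overlapped a peak, the strongest was used. Regions are the union of overlapping peaks of the 4 lists, and a region's rank is that of its strongest peak. Depth was estimated from the lowest background that fold and p-value imply together, taking a 2.7 Gb genome and the narrowest peak as the fragment length, and pileups came out whole at 100% of peaks at the lowest background. Genes were those of GENCODE 44 lifted to GRCh37, the build of the lists, and 0 peaks ran past a chromosome end. The functions were tested on simulated data. The number of peaks was tested over samples by exact permutation (two-sided). The same numbers were tested in pairs by sign flips. No other test was run, since peaks and regions of a library are not replicates.

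The members and gene lists were chosen with earlier results of these data known. Named in the text were the regions lost or gained in both sets with the lowest rank sums, the regions in all 4 lists with the largest change in the same direction, genes of the lists with a region lost or gained in both sets or a promoter region moved by 10 points or more in both, and 12 genes always given (IRF9, CD274, DUSP6, ISG15, IRF7, USP18, STAG1, STAG2, SMC1A, CTCF, MITF and SOX10). DUSP4 and further sites at ISG15, USP18, SOX10 and EGFR were added after their values were seen, as were the matching of lists between sets, the fold enrichment by strength and the counts of regions per gene. These libraries hold no expression data, so the cell line label could not be set against marker levels. A gene and a site that the rule would name are not reported here.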

Additional observations from a re-analysis of the deposited data

Results flagged for a closer look

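Rows off chromosomes 1 to 22 and X stood outside the comparisons. They numbered 2564 in the WT and 3262 in the STAG2-KD list of set 1, where contigs of patches and alternate loci are included, and 216 and 255 in set 2. STAG2-KD lists had more such rows in both sets, as they had more peaks in all, and these rows were not used.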

How the results depend on the processing

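The larger number of SMC1A peaks in STAG2-KD was found under every setting tried for it, the common and stricter thresholds, either set alone and the replicate block, but no setting can reach significance. With the replicate number as a replicate block, the paired log2 ratio was again 0.086, and the exact sign-flip test gave p = 0.5, the smallest that 2 pairs allow. The sets pair by batch per the labels. From either set alone, the ranges were 0.018 to 0.15, 19.1% to 25.8% lost, 28.5% to 29.7% gained and 1.11 to 2.53 points. The lost and gained shares, 22.4% and 29.1% as means of the sets, depend on where the lists end: they were 12.2% and 23.9% at −log10 q of at least 5, 27.4% and 33.3% when 50% of the shorter peak had to overlap, 13.6% and 20.4% when the other list was extended by 500 bp, and 2.38% and 4.76% when only the strongest 50% of the holding list was counted. The gained share was 28.2% at the common threshold and 21.3% when each list was limited to its strongest 82239 peaks, under which 3784 regions were lost in both sets in place of 2053. The lost share was 20.9% at the common threshold and 19.2% with lists limited to equal number. Gained shares exceeded lost shares under each of these settings. With lists of equal number the shares lay closer together than in the full lists. The median change at shared peaks reversed to −1.62 points when percentiles were taken among shared peaks only, which leaves out the peaks without a partner. Its spread was 16.0 points for peaks that met exactly 1 peak of the other list. The correlation between the sets was 0.394 with fold enrichment percentiles, 0.576 among shared peaks, 0.442 one to one and 0.464 for WT percentiles of 20 to 80. Of 41 alternative values, 24 stayed within the spread between the sets or within 1.5 times a count. The values from either set alone and from the replicate block are among the 24. They could not leave that spread, so they say nothing about stability.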
